A study of Mus musculus with 2 samples.

Results

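The genes described here encode 10 mouse enzymes that use or remake arginine: the arginases Arg1 and Arg2, the inducible nitric oxide synthase Nos2, the citrulline-recycling pair Ass1 and Asl, the polyamine enzymes Odc1, Srm, Sms and Sat1, and the ornithine aminotransferase Oat. They were taken by symbol from a table of 46095 genes, in which all 10 had a row. The library of the knockout (KO) cells, titled TIPE1-KO, has the genotype TIPE1-/-, and the series' design text gives its mice as LyzM-Cre; Tipe1f/f, so that Cre is made from the lysozyme locus in myeloid cells and the floxed gene is lost there. The library of the WT cells has the genotype wild type, and the design text gives its mice as Tipe1f/f, so both genotypes carried floxed alleles by that text and only the KO mice carried Cre. Both were C57BL/6, with no age given in the labels. Cells from femur and tibia were grown for 5 days with 100 ng/ml M-CSF, the growth factor that turns marrow progenitors into macrophages, and neither culture is described as having received an inflammatory or alternative stimulus. The question given by the series title is how TIPE1, the protein of Tnfaip8l1, bears on macrophage polarization.

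Macrophages can send arginine down competing routes. Arginase splits it into urea and ornithine, the substrate for polyamines and for proline, whereas inducible nitric oxide synthase turns it into nitric oxide and citrulline, which argininosuccinate synthase and lyase convert back to arginine. In mouse macrophages high Nos2 is the classic mark of inflammatory (M1) activation and high Arg1 that of the tissue-repair (M2) state.

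There was 1 library per genotype, with 15815956 counted reads for KO cells and 11782664 for WT cells, so nothing below could be checked in a replicate and no test was run. Reads were scaled to counts per 1000000 (CPM), and intervals in parentheses are 95% counting intervals, which leave out the variation between mice and cultures. Tnfaip8l1 had 3 reads in KO cells and 21 in WT cells. Of 12 macrophage markers 8 lay within 1.5-fold, with a summed level of 23615 CPM in KO cells and 28482 CPM in WT cells, and among the others Adgre1 was higher and Lyz2 was lower in KO cells. Of 20 stromal markers 18 were lower by 1.5-fold or more in KO cells, with sums of 311 CPM in KO cells and 2512 CPM in WT cells and ratios of KO to WT from 0.0495 to 0.963 over the 19 that reached 1 CPM. Col1a1, the stromal marker of the highest mean level, stood at 58.9 CPM in KO cells and 714 CPM in WT cells, Col1a2 at 45.0 CPM in KO cells against 523 CPM in WT cells, and Lox, the lysyl oxidase gene, at 102 CPM in KO cells against 174 CPM in WT cells. Of 8 monocyte markers 4 were lower, with sums of 337 CPM in KO cells and 726 CPM in WT cells. Neutrophil markers summed to 848 CPM in KO cells and 1129 CPM in WT cells, and 4 of 12 were lower. B cell markers summed to 2.46 CPM in KO cells against 12.6 CPM in WT cells, T and NK cell markers to 9.14 CPM in KO cells against 7.45 CPM in WT cells, and erythroid markers to 0.259 CPM in KO cells against 0.497 CPM in WT cells. Dendritic cell markers, mostly Itgax, summed to 196 CPM in KO cells against 77.6 CPM in WT cells, and endothelial markers to 55.4 CPM in KO cells against 50.1 CPM in WT cells. The macrophage gene Aif1 and the stromal gene Tagln were listed at 0 in both libraries, and for that reason a listed 0 is not read as absent RNA.

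Among the 10 enzymes, all 3 that consume arginine were lower in KO cells, 1 of the 2 genes that rebuild arginine from citrulline was higher, and the other 6 enzymes lay within 1.5-fold. A gene was called by size alone, at 1.5-fold or more after 0.5 CPM had been added to both values. By that rule 3 of the 10 enzymes were lower, against 7.43% of the 12495 genes that averaged 1 CPM or more and were compared. By the same rule 1 of the 10 was higher, against 6.61% of those genes. All 10 enzymes passed the limit of 1 CPM. Their median log2 ratio of KO over WT was -0.03, beside 0.01 for all genes compared. At 2-fold, 2 enzymes were lower, against 3.95% of all genes, and 0 were higher, against 2.02%.

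**Figure D1:**
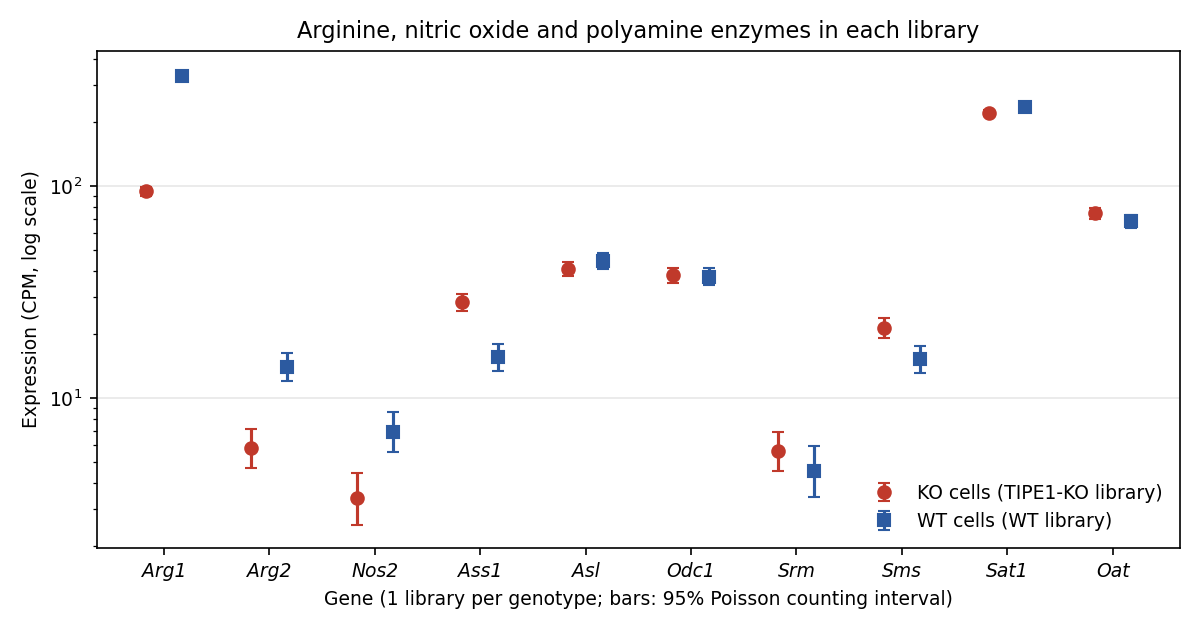
Level of each of the 10 enzyme genes in CPM on a log axis, with KO cells as circles and WT cells as squares, and 95% Poisson counting intervals as bars. The intervals of the libraries lie apart for Arg1, Arg2, Nos2, Ass1 and Sms, and overlap for the other 5 genes.

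Arg1, the cytosolic arginase (GRCm38 chromosome 10, 24915221 to 24927484, minus strand, protein-coding), had 1461 reads in KO cells and 3992 in WT cells. These correspond to 94.7 CPM (89.9 to 99.7) in KO cells and 331 CPM (320 to 341) in WT cells. Arg1 was thus 3.49-fold lower (3.29 to 3.71) in KO cells, and 2.13% of all genes compared had a lower log2 ratio. It remained an abundant transcript there, above 91.4% of genes by level per kilobase of exon, whereas in WT cells it was above 98.4%. Arg2 (chromosome 12, 79130777 to 79156301, plus strand), the mitochondrial arginase, had 90 reads in KO cells and 170 in WT cells, which is 5.83 CPM (4.69 to 7.17) in KO cells and 14.1 CPM (12.0 to 16.4) in WT cells. It was 2.41-fold lower (1.86 to 3.15) in KO cells, and 3.30% of genes had a lower log2 ratio. Its 3' end overlaps that of Vti1b on the other strand, and without the strand setting some reads could belong to either gene.

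Both arginase genes were therefore lower by more than their counting intervals allow, and Arg1 made up most of the arginase reads in either library. Its share of the reads of Arg1 and Arg2 was 94.2% (92.9 to 95.3) in KO cells and 95.9% (95.3 to 96.5) in WT cells (exact Clopper-Pearson intervals), and these intervals meet. The intervals of the 2 fold changes, 3.29 to 3.71 for Arg1 and 1.86 to 3.15 for Arg2, do not meet. In a bulk library, fewer cells that make Arg1 and less Arg1 RNA in each cell cannot be told apart. The stromal and monocyte markers given above were lower in the same library as both arginase genes, and their part in the lower arginase levels was not tested.

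Nos2 (chromosome 11, 78920787 to 78960254, plus strand), which makes nitric oxide in activated mouse macrophages, was low in both libraries, above 12.0% of genes per kilobase of exon in KO cells and above 20.9% in WT cells. It had 52 reads in KO cells and 84 in WT cells, or 3.37 CPM (2.52 to 4.42) in KO cells against 6.95 CPM (5.55 to 8.61) in WT cells. It was 2.06-fold lower (1.44 to 2.98) in KO cells, and 4.23% of genes had a lower log2 ratio. With so few reads the lower bound of that interval falls short of 1.5-fold. Arg1 and Nos2 were thus lower in the same library, although they mark opposite states. There were 28.1 Arg1 reads per Nos2 read in KO cells and 47.5 in WT cells, and the share of Arg1 among the reads of both genes was 96.6% (95.5 to 97.4) in KO cells and 97.9% (97.5 to 98.4) in WT cells. The intervals of those shares lie apart only narrowly. The stromal and monocyte markers were lower in the same library as Nos2 too, and their part in its level was not tested.

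**Figure D2:**
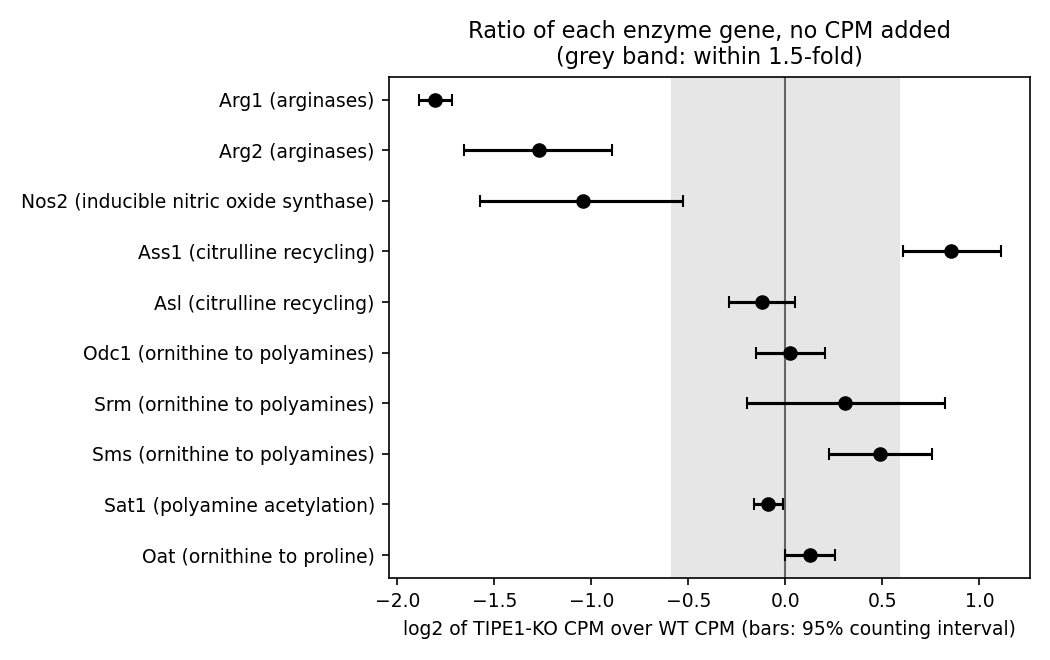
log2 of the CPM ratio of KO cells over WT cells for the 10 enzyme genes, grouped by role, with no CPM added and with 95% counting intervals as bars. Arg1, Arg2 and Nos2 lie left of the grey band of 1.5-fold, Ass1 right of it, and the other 6 genes inside it.

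Ass1 (chromosome 2, 31470207 to 31520672, plus strand) encodes argininosuccinate synthase, the first and rate-limiting step by which citrulline is turned back into arginine. It was the enzyme gene with the largest ratio in the upward direction. It had 437 reads in KO cells and 189 in WT cells, or 28.3 CPM (25.7 to 31.1) in KO cells against 15.6 CPM (13.5 to 18.0) in WT cells. Ass1 was 1.81-fold higher (1.52 to 2.16) in KO cells, and 3.02% of all genes compared had a higher log2 ratio. RefSeq lists a pseudogene of it, Ass-ps1, so reads shared with it could have been lost or added in either library. Asl (chromosome 5, 130011258 to 130029247, minus strand), the lyase that completes the cycle, did not share that difference. It had 630 reads and 40.8 CPM (37.7 to 44.1) in KO cells and 536 reads and 44.4 CPM (40.7 to 48.3) in WT cells, a ratio of 0.920 (0.819 to 1.03). Of the reads of both recycling genes, Ass1 held 41.0% (38.0 to 44.0) in KO cells and 26.1% (22.9 to 29.4) in WT cells, a comparison within each library that needs no scaling.

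The promoter window of Ass1 is shown because Ass1 was the only enzyme gene higher by the size rule. It comes from RefSeq for GRCm38.p6 and covers chr2:31470020-31470319 on the plus strand, from 250 bases before to 50 bases after the RefSeq start site. The capitals mark a GC box (GGGCGG on either strand, a sequence bound by Sp1-type factors) and an E-box (CACGTG on either strand, a sequence bound by MYC and MAX among other factors).
Ass1: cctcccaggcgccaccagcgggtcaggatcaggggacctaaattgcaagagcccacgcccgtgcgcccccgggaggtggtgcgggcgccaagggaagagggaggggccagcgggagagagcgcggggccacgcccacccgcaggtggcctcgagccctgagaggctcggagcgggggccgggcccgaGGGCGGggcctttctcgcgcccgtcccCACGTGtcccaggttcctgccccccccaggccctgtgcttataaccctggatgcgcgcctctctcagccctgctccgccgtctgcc
The window held 1 E-box, starting 36 bases before the RefSeq start site at position -36, and 1 GC box, at position -63. The annotated gene span given above begins upstream of that start site, at 31470207, and both motifs lie within the span. An E-box was present in 7.15% of all 32851 RefSeq windows of this length, and a GC box in 35.7%. The Ass1 window was 74% G and C, beside a median of 52.7% over all windows. A match to these letters is a description and not a bound site.

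Odc1 (chromosome 12, 17544794 to 17551505, plus strand), whose product decarboxylates ornithine as the first step of polyamine synthesis, was level between the libraries. It had 588 reads in KO cells and 452 in WT cells, or 38.1 CPM (35.1 to 41.3) in KO cells against 37.4 CPM (34.1 to 41.0) in WT cells. The ratio was 1.02 (0.899 to 1.15), so that the lower level of Arg1 was not accompanied by a lower level of the next enzyme that takes up ornithine. Srm (chromosome 4, 148591503 to 148594993, plus strand), spermidine synthase, had 87 reads in KO cells and 55 in WT cells, or 5.64 CPM (4.52 to 6.96) in KO cells against 4.55 CPM (3.43 to 5.93) in WT cells. Its ratio of 1.24 (0.873 to 1.77) included 1, and at this depth a difference was not detectable. Sms (chromosome X, 157443855 to 157492287, minus strand), which adds the last aminopropyl group to make spermine, had 330 reads in KO cells and 184 in WT cells. At 21.4 CPM (19.1 to 23.8) in KO cells and 15.2 CPM (13.1 to 17.6) in WT cells its ratio was 1.40 (1.17 to 1.69), above 1 by its counting interval but under the limit of 1.5-fold, and 9.18% of genes had a higher log2 ratio. Sms also has a pseudogene in RefSeq, Sms-ps.

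The windows of Odc1 and Sms are shown beside that of Ass1 because both genes act downstream of arginase and neither followed Arg1. They cover chr12:17544623-17544922 on the plus strand and chrX:157492238-157492537 on the minus strand (RefSeq, GRCm38.p6), with the same motifs in capitals.
Odc1: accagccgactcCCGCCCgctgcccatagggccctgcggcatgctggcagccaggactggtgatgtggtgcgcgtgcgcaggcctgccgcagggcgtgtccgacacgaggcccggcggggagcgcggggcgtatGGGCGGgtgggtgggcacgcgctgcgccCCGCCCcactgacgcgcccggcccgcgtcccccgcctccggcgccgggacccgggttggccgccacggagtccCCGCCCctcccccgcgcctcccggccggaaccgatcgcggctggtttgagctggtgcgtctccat
Sms: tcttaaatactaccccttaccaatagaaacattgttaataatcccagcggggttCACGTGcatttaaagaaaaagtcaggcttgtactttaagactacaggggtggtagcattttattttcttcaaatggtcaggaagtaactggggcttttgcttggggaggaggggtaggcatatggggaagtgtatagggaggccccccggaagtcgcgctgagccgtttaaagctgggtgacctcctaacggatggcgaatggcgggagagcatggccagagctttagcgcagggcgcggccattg
The Odc1 window held 4 GC boxes and no E-box, at 78% G and C, and the printed Sms window held 1 E-box, at position -196, and no GC box, at 50.3% G and C. That window was chosen because it surrounds the annotated start of the gene at 157492287. The other Sms window, which starts at 157491319, held no E-box and 4 GC boxes, some of them overlapping each other, at 74.3% G and C. In these windows no GC box overlapped an E-box. RefSeq windows were matched for 5 of the 10 enzyme genes (Ass1, Odc1, Sms, Sat1 and Oat), with 6 windows in all, 2 of them for Sms. None of the 6 held the TATA sequence TATAAA, present in 13.6% of all windows, or TTCNNNGAA, a STAT-type sequence present in 8.30%, both searched on both strands. Arg1, Arg2, Nos2, Asl and Srm had no matched window, so no motif was searched for in those genes.

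Sat1 (chromosome X, 155213132 to 155216449, minus strand) encodes the acetyltransferase that marks spermidine and spermine for breakdown or export. It was the enzyme gene with the most reads in KO cells, 3421 against 2844 in WT cells. The levels were 222 CPM (214 to 229) in KO cells and 235 CPM (227 to 244) in WT cells, and the ratio of 0.942 (0.896 to 0.990) was below 1. Oat (chromosome 7, 132557478 to 132576398, minus strand), the mitochondrial enzyme that sends ornithine towards proline and glutamate, had 1150 reads and 74.5 CPM (70.3 to 79.0) in KO cells and 824 reads and 68.2 CPM (63.6 to 73.0) in WT cells. Its ratio was 1.09 (0.998 to 1.20). Oat lies inside the annotated span of Fgfr2 on the same strand. Between the genes that draw on ornithine, Odc1 held 33.8% (31.6 to 36.1) of the reads of Odc1 and Oat in KO cells and 35.4% (32.8 to 38.1) in WT cells, with intervals that overlap.

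The order of the enzymes by level differed between the libraries mainly through Arg1, Arg2 and Ass1. Levels between genes were compared as CPM per kilobase of annotated exon. In KO cells Sat1 came first at 79.9 CPM per kilobase (77.3 to 82.7), followed by Arg1 at 42.5 (40.3 to 44.7) and Oat at 31.6 (29.8 to 33.5). Ass1 at 11.7 and Odc1 at 11.2 CPM per kilobase were next and were not separated by their intervals, then Asl at 8.45. Arg2 at 4.08, Sms at 3.56 and Srm at 3.53 followed below Asl and were not separated from each other, and Nos2 was last at 0.764 CPM per kilobase. In WT cells Arg1 came first at 148 CPM per kilobase (144 to 153), ahead of Sat1 at 84.9 (81.8 to 88.1) and Oat at 28.9 (27.0 to 31.0). Odc1 at 11.0, Arg2 at 9.86 and Asl at 9.19 CPM per kilobase followed, with the interval of Arg2 overlapping those of Odc1 and Asl, then Ass1 at 6.48, Srm at 2.85 and Sms at 2.53, the last pair again overlapping, and Nos2 at 1.58. Ass1 was thus above Asl per kilobase in KO cells and below it in WT cells. Before division by exon length, Ass1 had the lower CPM of the pair in both libraries.

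**Figure D3:**
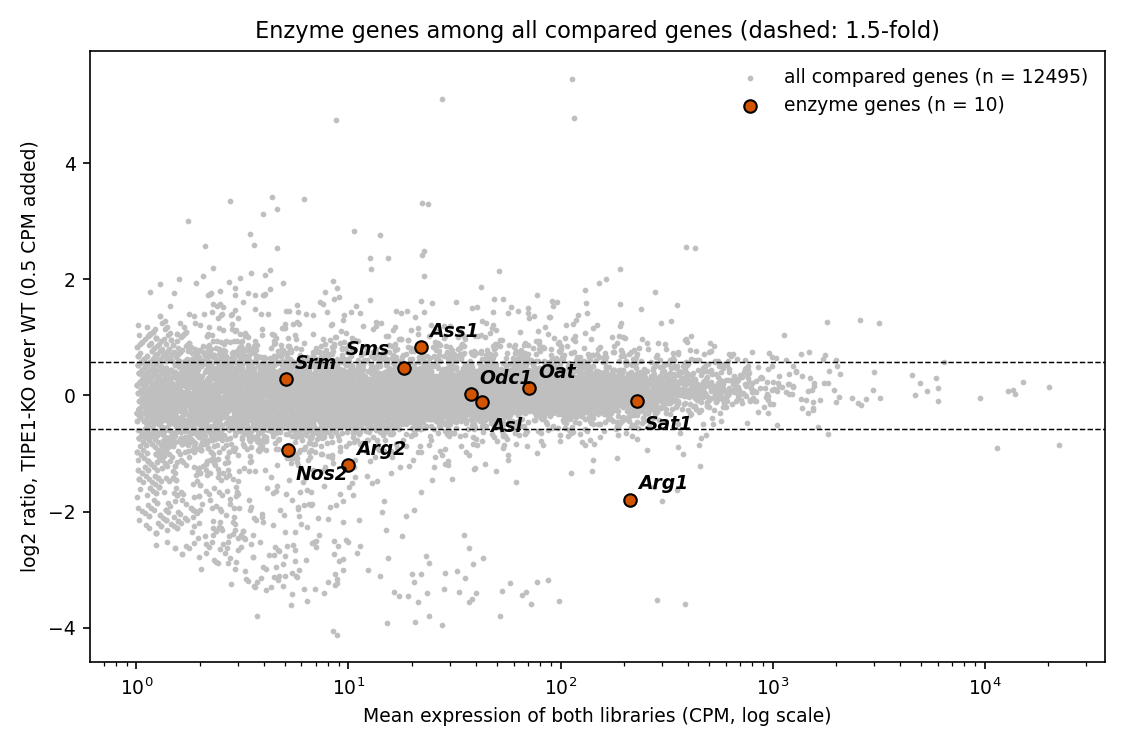
log2 ratio of KO cells over WT cells, with 0.5 CPM added, against the mean level of both libraries for the 12495 genes compared (grey) and the 10 enzyme genes (orange). Arg1 lies at -1.80 with a mean of 213 CPM, below the dashed line of 1.5-fold together with Arg2 and Nos2, and Ass1 lies above the upper line.

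Around the 10 enzymes, 86 other genes were examined, in lists of arginine transport, nitric oxide, polyamine, methionine, proline and creatine genes and of 14 transcription factors, and 67 of the 86 reached that mean of 1 CPM. Of these 4 were higher by 1.5-fold or more in KO cells and 4 lower, 5.97% in each direction, close to the shares of 6.61% and 7.43% over all genes. Their median log2 ratio was 0.01.

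Slc7a1, the main cationic amino acid transporter that brings arginine into cells, stood at 55.7 CPM in KO cells and 33.9 CPM in WT cells, 1.64-fold higher (1.46 to 1.85). It was the only 1 of 6 compared transport genes past 1.5-fold. Slc3a2, the heavy chain shared by several amino acid transporters and the gene of the highest level in that list, stood at 335 CPM in KO cells and 376 CPM in WT cells, a ratio of 0.891. Gch1, the rate-limiting enzyme of tetrahydrobiopterin synthesis, stood at 43.7 CPM in KO cells and 26.0 CPM in WT cells, 1.68-fold higher (1.47 to 1.93). The other 5 compared genes of that cofactor lay within 1.5-fold, with Qdpr, which regenerates it, at 45.5 CPM in KO cells and 35.0 CPM in WT cells. Nos2, an enzyme that needs this cofactor, was lower in the same library.

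Among the remaining nitric oxide genes, Nos1 had 0 reads in KO cells and 2 in WT cells, and Nos3 had 3 reads in KO cells and 6 in WT cells, too few for a ratio. Txnrd1, thioredoxin reductase, which also acts on nitrosylated thiols, stood at 415 CPM in KO cells and 264 CPM in WT cells, 1.57-fold higher, and 1.49-fold higher, just under the limit, when scaled by total counts. Ddah1, which removes a methylated arginine that inhibits the synthases, had 5 reads in KO cells and 31 in WT cells, 7.92-fold lower (3.05 to 26.1), and its ratio of 0.126 became 0.269 with 0.5 CPM and 0.509 with 2 CPM added to both values. Gucy1b3, a subunit of the guanylate cyclase that senses nitric oxide, had 13 reads in KO cells and 24 in WT cells, 2.36-fold lower (1.15 to 5.04), and with 2 CPM added its ratio of 0.713 was no longer past 1.5-fold. Both lower genes were at very low levels, in the library that also had the lower stromal markers, whose part was not tested. Ddah2, Gchfr and Pcbd1 were listed at 0 in both libraries.

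Genes of polyamine control, breakdown and transport all lay within 1.5-fold, 5 of 5 for synthesis with its antizyme control and 4 of 4 for oxidation and transport. Azin1, the antizyme inhibitor that protects ornithine decarboxylase from degradation, came nearest to the limit, at 272 CPM in KO cells and 184 CPM in WT cells, a ratio of 1.48 (1.40 to 1.55). Amd1, which makes the aminopropyl donor, stood at 37.0 CPM in KO cells and 30.6 CPM in WT cells. Oaz1, the antizyme itself, stood at 75.6 CPM in KO cells and 78.7 CPM in WT cells. Atp13a2, a lysosomal polyamine exporter, stood at 452 CPM in KO cells and 454 CPM in WT cells. All 8 genes of methionine salvage and all 4 of eIF5A hypusination, the modification that uses spermidine, were within 1.5-fold as well, with Mat2b at 54.7 CPM in KO cells against 58.9 CPM in WT cells and Dohh at 26.7 CPM in KO cells against 30.1 CPM in WT cells.

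On the proline branch, Pycr1, a reductase of the last step of proline synthesis, had 6 reads in KO cells and 20 in WT cells, 4.26-fold lower (1.65 to 12.96). Its ratio of 0.235 became 0.412 with 0.5 CPM and 0.653 with 2 CPM added to both values. The other 6 compared genes, among them Got2 at 98.1 CPM in KO cells against 100.3 CPM in WT cells, lay within 1.5-fold. Slc25a15, the mitochondrial ornithine carrier, stood at 10.1 CPM in KO cells and 8.20 CPM in WT cells, whereas Cps1, Otc and Nags, the mitochondrial enzymes of the liver urea cycle, were listed at 0 in both. Of 4 creatine genes, Ckb, the brain-type creatine kinase, was 2.11-fold higher (1.96 to 2.27) at 176 CPM in KO cells and 83.7 CPM in WT cells. The creatine transporter Slc6a8 stood at 252 CPM in KO cells and 307 CPM in WT cells.

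**Figure D4:**
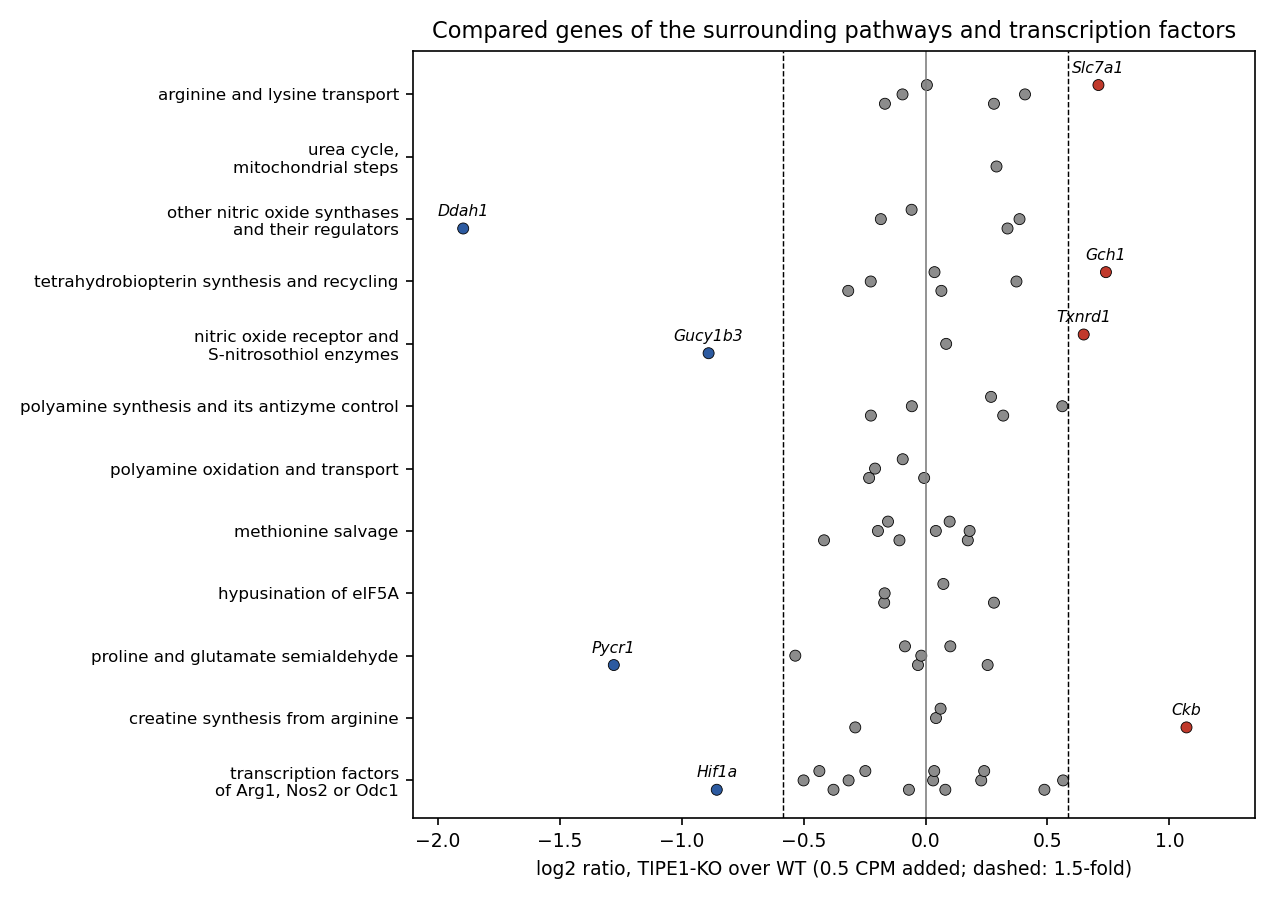
log2 ratio of KO cells over WT cells, with 0.5 CPM added, for the 67 compared genes of the surrounding pathways and transcription factors, 1 row per list. The 8 named genes lie outside the dashed lines of 1.5-fold, 4 on each side, and the other 59 lie between them.

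Of the 14 transcription factors counted above, which are known to act on Arg1, Nos2 or Odc1, 13 lay within 1.5-fold and 1, Hif1a, was lower. That is 7.14% of these factors, close to the 7.43% of all genes compared that were lower. Hif1a, the hypoxia-inducible factor subunit that activates Nos2 in mouse macrophages, stood at 320 CPM in KO cells and 580 CPM in WT cells, 1.81-fold lower (1.75 to 1.88). Its ratio of 0.552 (0.532 to 0.573) became 0.525, outside that interval, when scaled by total counts. Stat6, which transmits the interleukin signal that induces Arg1, was level at 277 CPM in KO cells and 271 CPM in WT cells, a ratio of 1.02 (0.976 to 1.07). Cebpb, a further activator of Arg1, stood at 252 CPM in KO cells and 300 CPM in WT cells, a ratio of 0.843. On the side of Nos2, Nfkb1 stood at 198 CPM in KO cells against 141 CPM in WT cells, a ratio of 1.40 (1.32 to 1.49), so that it lay higher while Nos2 lay lower. Myc, an activator of Odc1, was level at 15.6 CPM in KO cells and 14.7 CPM in WT cells. Whether any of these factors bore on the levels of the enzyme genes was not tested.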

How the data were processed

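The deposited values are raw read counts per gene symbol, with 1 column per library and no normalization, per the file headers. The submitters' processing notes name the aligner HISAT2 and the build GRCm38, with no version. Which counter, gene models, strand handling and filters were used is not given in these sources, so reads of overlapping genes or close copies can be misplaced. Every row had a gene name.

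Counts were scaled to CPM by TMM effective library sizes (edgeR 4.0.16, R 4.3.3). Ratios are KO over WT without added CPM, with exact Clopper-Pearson 95% intervals of the split of the reads (scipy 1.17.1). Intervals of single levels are exact Poisson. Both cover counting error only, and PCR reads without molecular identifiers are not independent molecules. A count of 3 equals 0.194 CPM in KO cells and 0.248 CPM in WT cells. Calls and background shares use the log2 ratio with 0.5 CPM added, among the 12495 genes that averaged 1 CPM or more. With 1 library per genotype no test was run. The steps were tested on simulated data (10 pairs) drawn with Poisson counting error alone. Variation between mice or cultures was not simulated, so that check does not cover it.

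Exon lengths (union of all exons) and positions are from GENCODE M21 (GRCm38), and 3 of 182 list symbols were matched through RefSeq synonyms. The members and lists were chosen with earlier results of these data known. Named from the pathway lists are genes 1.5-fold or more apart that averaged 5 CPM or more, and the gene of the highest mean in each list. Ddah1, Gucy1b3, Pycr1, Nos1, Nos3, Amd1, Oaz1, Stat6, Cebpb, Nfkb1, Myc and genes listed at 0 were added after their values were seen. Some genes of these lists are counted but not reported here by name.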

Additional observations from a re-analysis of the deposited data

How the results depend on the processing

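No paired analysis was possible because there was only 1 library per genotype. All 60 recomputed ratios of single enzymes (total counts, median-of-ratios scaling, 0.5 or 2 CPM added, TMM without stromal markers, KO reads thinned to the WT total) stayed inside their counting intervals. The scalings shifted every log2 ratio alike, by -0.071 (total counts), 0.0089 (median of ratios) and -0.00033 (TMM without stromal markers). Among the other listed genes, Hif1a and Txnrd1 left their intervals with total counts, at ratios of 0.525 and 1.49. Ddah1 and Pycr1 left theirs with 2 CPM added. At a mean of at least 10 CPM, 1 enzyme and 1 of the other listed genes (Hif1a) were lower, since Arg2, Nos2, Ddah1, Gucy1b3 and Pycr1 then drop out, and 406 of all genes were higher and 210 lower. Without a filter 1362 of all genes were higher and 1636 lower. The number of genes compared differs in both of these settings from the 12495 used above. Their counts are therefore not shares of 12495 and give no background for the enzymes. At 2-fold, a setting chosen after seeing the data like the thinning, 0 enzymes were higher, the other listed genes numbered 1 higher and 2 lower, and all genes 252 higher and 494 lower. Per kilobase of exon, the share of Arg1 in arginase was 91.2% in KO cells and 93.8% in WT cells. Depth limits Srm and Nos2 most.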
